A study of Drosophila melanogaster with 3 samples.

Results

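Of 2475 reproducible peaks of the tagged homeobox factor NK7.1 in whole Drosophila embryos, 342 (13.8%) lay at core promoters with coding start sites on a single strand only. A peak was included when its summit, the base of highest signal, lay 0 to 150 bp from the nearest transcription start site of a protein-coding gene, and when all coding start sites within 1 kb were on the same strand. Start sites of all coding transcripts in the BDGP6 annotation were used. The rule took the unsigned distance and the strand, so the side of the start site, the sequence and the kind of gene are separate from it. Signal and support by single replicates are not fully separate, because the peaks come from a set already thresholded for reproducibility.

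The chromatin came from embryos of a transgenic line stably expressing NK7.1 with GFP fused to its C-terminus, collected over 0 to 24 hours, with males and females pooled. It was sonicated to a size range labelled 200 to 800 and precipitated with an antibody against GFP. There were 3 biological replicates of this 1 group. Neither the promoter that drives the transgene nor the level of tagged protein is stated in the labels, and whole embryos mix all cell types. An untagged line was not analysed here, so binding of NK7.1 and recovery of promoter DNA by the tag or the antibody cannot be told apart at any peak.

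A core promoter is the stretch around the start site where RNA polymerase II and the general transcription factors assemble. In flies, regulated genes often carry a TATA box or an initiator (Inr), whereas broadly expressed genes often carry the DNA replication-related element (DRE) or Motif 1. Ribosomal protein genes use a pyrimidine-rich TCT initiator. NK7.1 belongs to the NK class of homeobox factors, and homeodomains bind short AT-rich sites with a TAAT core.

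Start-site sequences of members with high signal are given first, as examples of the windows in which promoter words were counted. They come from the 12 highest members outside a single chromosome arm. GstE13, Alg3, Fkbp14, eIF6 and CG5335 lie on that arm and are not shown, though they rank among the 20 highest members. Each runs from 70 bp before to 30 bp from the start site, on the gene's strand and dm6 coordinates, with the start site at base 71. Capitals mark promoter words found by exact search at the positions given with the results on promoter sequence, where the words are spelled out. A word on the other strand is marked as its reverse complement (CTCTC for GAGAG). The start-site windows of TRAM, RpL30 and RpS4 are not printed because they lie largely in untranslated exons.
CG14100, chr3L:19590495-19590594, minus strand: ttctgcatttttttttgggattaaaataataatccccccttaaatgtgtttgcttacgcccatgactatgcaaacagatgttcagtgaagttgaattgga
CG18549, chr3R:12449226-12449325, plus strand: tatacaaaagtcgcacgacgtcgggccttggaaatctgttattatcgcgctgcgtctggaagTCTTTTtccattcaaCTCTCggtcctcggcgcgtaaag
CG13921, chr3L:1746837-1746936, plus strand: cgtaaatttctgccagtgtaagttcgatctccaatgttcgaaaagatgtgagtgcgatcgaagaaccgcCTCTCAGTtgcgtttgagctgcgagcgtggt
CG1607, chr3R:31384329-31384428, plus strand: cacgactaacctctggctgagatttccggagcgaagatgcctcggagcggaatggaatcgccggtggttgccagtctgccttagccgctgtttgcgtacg
Hpf1, chr3R:5791809-5791908, plus strand: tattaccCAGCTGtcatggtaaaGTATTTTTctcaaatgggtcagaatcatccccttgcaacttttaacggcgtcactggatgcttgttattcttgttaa
eEF1gamma, chr3R:29220102-29220201, plus strand: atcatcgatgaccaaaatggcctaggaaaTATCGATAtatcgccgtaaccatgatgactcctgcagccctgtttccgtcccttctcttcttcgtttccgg
brwl, chr2L:9568820-9568919, plus strand: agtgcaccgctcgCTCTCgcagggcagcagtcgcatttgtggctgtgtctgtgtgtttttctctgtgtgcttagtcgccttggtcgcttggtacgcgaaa
gro, chr3R:26042571-26042670, plus strand: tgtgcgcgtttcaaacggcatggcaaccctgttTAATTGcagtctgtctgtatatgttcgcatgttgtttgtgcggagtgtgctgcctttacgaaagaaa
Trp1, chr2L:10010284-10010383, plus strand: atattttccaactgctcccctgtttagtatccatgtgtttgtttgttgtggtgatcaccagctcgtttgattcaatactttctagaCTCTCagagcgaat
Eip75B, chr3L:17999792-17999891, minus strand: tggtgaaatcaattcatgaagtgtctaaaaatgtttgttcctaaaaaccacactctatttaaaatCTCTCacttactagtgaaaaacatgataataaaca
RpL23A, chr3L:1668625-1668724, minus strand: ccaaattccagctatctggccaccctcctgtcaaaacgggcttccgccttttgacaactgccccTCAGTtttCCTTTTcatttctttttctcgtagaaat

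Many of these summits lay away from the start site. Windows of 61 bp centred on the summit are shown for members of this group with a summit more than 100 bp upstream, on the gene's strand. Capitals again mark an exact word, but the TATA, Inr and TCT words were searched only near the start site and are not marked here.
CG18549, chr3R:12449124-12449184, plus strand: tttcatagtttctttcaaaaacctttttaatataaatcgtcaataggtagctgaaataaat
CG13921, chr3L:1746731-1746791, plus strand: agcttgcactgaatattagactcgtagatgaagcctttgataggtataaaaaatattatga
CG1607, chr3R:31384222-31384282, plus strand: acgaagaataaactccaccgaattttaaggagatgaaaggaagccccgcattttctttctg
Hpf1, chr3R:5791736-5791796, plus strand: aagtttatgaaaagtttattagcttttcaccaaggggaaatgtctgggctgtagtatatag
brwl, chr2L:9568718-9568778, plus strand: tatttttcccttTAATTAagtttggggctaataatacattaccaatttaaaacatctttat
gro, chr3R:26042477-26042537, plus strand: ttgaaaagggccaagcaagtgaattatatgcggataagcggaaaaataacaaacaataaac
Trp1, chr2L:10010192-10010252, plus strand: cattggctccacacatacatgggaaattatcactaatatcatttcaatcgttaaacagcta

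Over the 12 highest members outside arm 2R, from which these were drawn, the median GC content was 34.4% in the 61 bp at the summit (range 23.0 to 57.4%) and 47.0% in the 100 bp at the start site (28 to 59%). The order was not the same at each: at RpL23A the summit window had 57.4% and the start-site window 46%, and at Eip75B the values were 27.9 and 28%. In the printed start-site windows, with the start site counted as base 1, the DRE word was at base -41 of eEF1gamma, and the homeodomain word TAATTG at base -37 of gro. The TCT word was at base 3 of RpL23A. CG14100 and CG1607 held none of the 12 words at the positions searched. Of the words searched at summits, which leave out TATA, Inr and TCT, the printed windows held only TAATTA, at brwl. The summit window of eEF1gamma, not printed, held the DRE word.

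The members' signal, the authors' score for each peak in the pooled list, ran from 92.6 to 1476 with a median of 126 (quartiles 104 and 180). The median was 150 over the 626 promoter-proximal peaks, whose nearest start site lay beyond 150 bp and within 1 kb, with start sites of a single strand. It was 138 over the 445 peaks within 150 bp of a start site with coding start sites of both strands within 1 kb. The 949 peaks with no coding start site within 1 kb had a median of 132. Within each replicate's own top 2475 peaks, the median signal of core promoter peaks was 46.6, 40.4 and 46.6 in replicates 1, 2 and 3, against 53.5, 44.2 and 53.3 for promoter-proximal peaks. The log2 ratio was -0.17 ± 0.04 (SD, n = 3) and negative in all 3 replicates; it was -0.08 in the strongest 50% of peaks and -0.03 with a limit of 250 bp. Against the both-strand peaks, at 50.2, 41.6 and 50.2, it was -0.09 ± 0.04, which turned to 0.05 in the strongest 50% of peaks and was -0.01 with a limit of 250 bp (exact sign-flip permutation p = 0.75). With 3 replicates the exact sign-flip permutation test cannot go below p = 0.25, which both comparisons gave (two-sided, adjusted p = 0.267 over 16 comparisons).

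CG14100 held the highest member on 3L, 88 bp upstream of its start site, with a pooled signal of 1476. Its peak in replicates 1, 2 and 3 had signals of 483, 476 and 512 and ranked 4, 3 and 4. All 3 replicates thus placed it among their first peaks. The peak 142 bp upstream of CG18549 had a pooled signal of 833, and signals of 368, 227 and 254 at ranks 10, 25 and 33. GstE13, which encodes a glutathione S-transferase, had its summit 47 bp downstream of the start site. Its pooled signal was 675, with 234, 182 and 263 in the replicates. The peak upstream of CG13921 had a pooled signal of 649 and replicate signals of 243, 169 and 239. These 4 members lay within the first 55 ranks of every replicate.

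Further members among the 20 highest were Alg3, Fkbp14, TRAM and Trp1. Alg3, a mannosyltransferase of N-glycan synthesis, had signals of 161, 114 and 233 in replicates 1, 2 and 3. Fkbp14, a prolyl isomerase of the endoplasmic reticulum, had 196, 126 and 154. TRAM, a protein of the translocation channel, had 142, 136 and 161. Trp1, the Sec62 subunit of the translocation machinery, had 122, 128 and 150. By signal, replicate 2 was lowest at 3 of these 4 genes and replicate 1 at Trp1. By rank, replicate 1 was lowest at TRAM too, at 133, 92 and 96. The order of replicates was thus not the same at each promoter.

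Hpf1, gro, Eip75B and PAN3 were also among the 20 highest. Hpf1, a cofactor of poly(ADP-ribose) polymerase at histones, had a summit 113 bp upstream with signals of 169, 152 and 180. The corepressor gene gro had 2 member peaks, at start sites of different transcripts. Its stronger summit, 134 bp upstream, had replicate signals of 142, 126 and 144 at ranks 132, 120 and 131. Its weaker summit, 95 bp upstream, had a pooled signal of 104 and ranked 3798, 2699 and 852, so only replicate 3 placed it among its top peaks. Eip75B, an ecdysone-induced nuclear receptor gene, also had 2, on either side of the same start site. Their pooled signals were 404 at 61 bp downstream and 97.0 at 148 bp upstream. The weaker summit lay on the last base of the stronger peak, so these 2 calls overlap. Peaks at PAN3, a subunit of a poly(A) nuclease, had signals of 150, 111 and 101.2. The genes jing and shot held 2 members each as well.

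**Figure D1:**
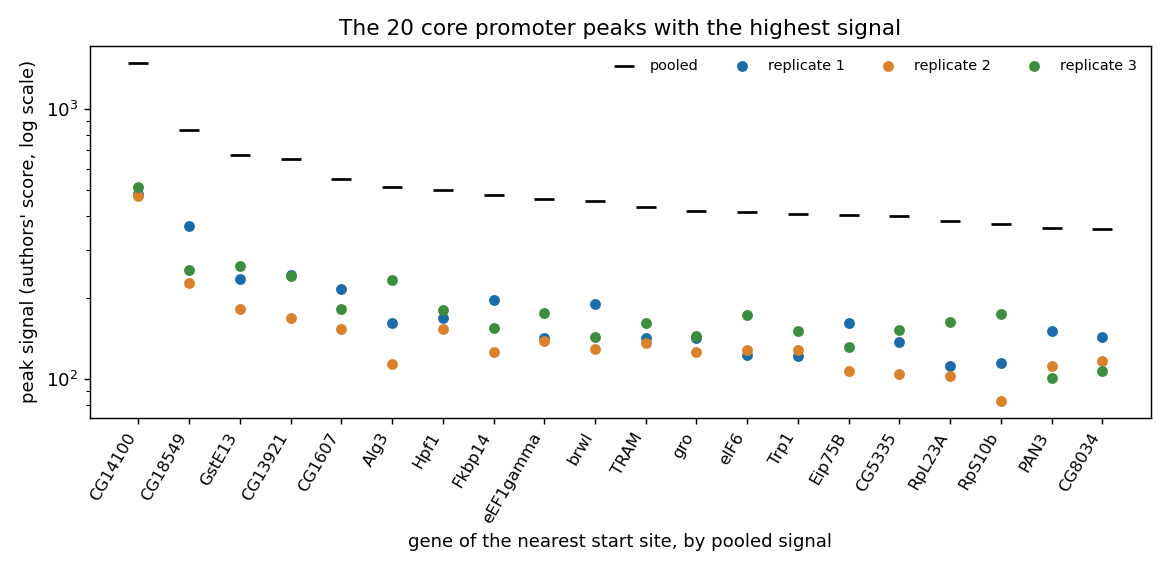
Peak signal (authors' score, log scale) of the 20 core promoter peaks with the highest pooled signal, ordered by it; dashes are the pooled list and coloured points the 3 replicates. CG14100 stands above the rest in every replicate, at 476 to 512, and the order of the replicates differs from gene to gene, with replicate 3 highest at RpL23A and RpS10b and lowest at PAN3.

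Of the 342 members, 170 (49.7%, Clopper-Pearson 95% interval 44.3 to 55.1%, counting only) were overlapped by at least 1 bp by a top 2475 peak of every replicate, beside 57.7% of all reproducible peaks. Single replicates supported 265, 245 and 273 members (77.5, 71.6 and 79.8%), beside 81.7, 79.4 and 80.8% of all reproducible peaks. Only 4 members, at Alas, Mapmodulin, Coq7 and CG9044, had no such support, beside 17 of all 2475 reproducible peaks. Support from at least 2 replicates was found for 275 members (80.4%), beside 84.8% of all reproducible peaks. Members were spread towards the lower ranks, where support by all 3 falls for any peak. At ranks 1 to 500 all 57 members were supported, as were all 443 other peaks. Of members ranked 501 to 1000, 92.2% of 64 were supported, beside 94.3% of the other peaks. In the next 500 ranks it was 56.5% of 62, beside 66.4%. Of those ranked 1501 to 2000 it was 23.3% of 73, beside 21.1%, and in the last bin, from rank 2001, 2.33% of 86, beside 6.17%. With the number of top peaks per replicate doubled, 82.5% of the members and 86.1% of all reproducible peaks were supported.

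Core promoter peaks were not concentrated at the top of the list. They made up 10% of the first 100 peaks of the pooled list, 12.8% of the peaks ranked 501 to 1000, and 18.1% of those from rank 2001 to the end of the reproducible set. Past the reproducible set the share was 17.2% down to rank 5000 and fell to 4.92% beyond rank 20000. In the replicates, 338, 316 and 422 of the top 2475 peaks met the rule, 13.7, 12.8 and 17.1%, against 8.32, 6.13 and 7.44% of the lower-ranked peaks. Replicate 3 stood apart here. Of its core promoter peaks 67.1% overlapped the reproducible set, against 78.1% and 80.1% in replicates 1 and 2, while its other top peaks did so at 83.4%, near the 83.3% and 80.3% of replicates 1 and 2.

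Summits lay mostly upstream. Of the members, 245 (71.6%, 66.5 to 76.4%) had the summit before the start site, 3 exactly on it and 94 beyond it, with a median position of -54 bp (negative is upstream). The stretch from 150 bp to just over 100 bp upstream held the most, 98, with a median signal of 153. The bin from 50 to 99 bp downstream held 26, with a median signal of 108. Of the upstream stretch 66.3% had support from all replicates, and of the downstream bins from 0, 50 and 100 bp on, 38.6, 23.1 and 42.9%. The distribution ran on past the limit of the rule: all 968 single-strand summits within 1 kb were upstream at 72.4%, with a median position of -138 bp. In the last 10 bp inside the limit lay 25 members, and in the first 10 bp outside it 22 peaks.

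**Figure D2:**
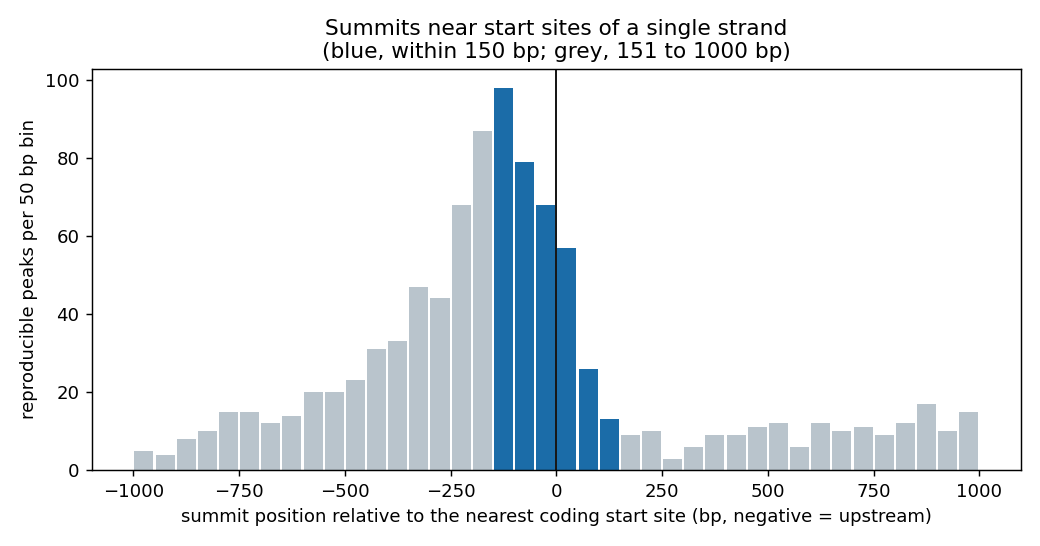
Reproducible peaks with coding start sites of a single strand within 1 kb, counted in 50 bp bins of the summit's position relative to the nearest start site (negative is upstream). Blue bars are core promoter peaks and grey bars are peaks farther off, except that the 1 member at exactly 150 bp downstream falls in a grey bar; the tallest bar is the blue one farthest upstream, with 98 peaks.

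The side changed with rank. In the pooled list 90% of the 10 core promoter peaks in the first 100 ranks were upstream. The share was 84.4% of the 64 ranked 501 to 1000, 60.5% of the 86 in the last bin of the reproducible set, and 46.2% beyond rank 20000. In replicates 1, 2 and 3 it was 73.7, 69.3 and 65.2% of the top core promoter peaks, against 52.5, 50.5 and 46.9% of those lower in the same lists. The difference of 19.4 ± 1.52 percentage points (SD, n = 3) had the same sign in each replicate (exact sign-flip permutation p = 0.25, the smallest possible; adjusted p = 0.267). The groups did not overlap. Replicate 3 had the lowest value in both.

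**Figure D3:**
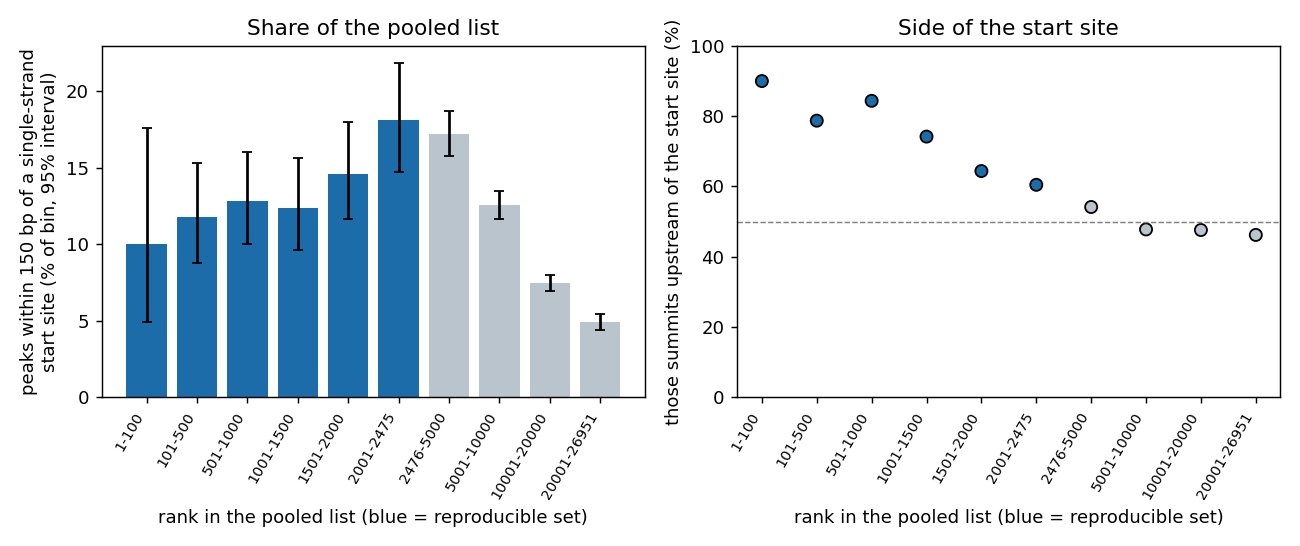
Left, the share of peaks in each rank bin of the pooled list with a summit within 150 bp of a single-strand coding start site (bars, Clopper-Pearson 95% interval); right, the share of those summits upstream of the start site, with a dashed line at 50%. Blue marks the reproducible set; the share is highest in the last blue bin (18.1%), and the upstream share falls from 90 to 46.2%.

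Summits of the replicates were set against the pooled summit and against each other. Where a replicate's top peak supported a member, the median distance between its summit and the pooled summit was 14, 19 and 15 bp in replicates 1, 2 and 3. The pool includes each replicate, so these distances do not measure agreement between replicates. In the full lists 338 members were found in all 3 replicates, and the summits of 259 of these (76.6%) were on the same side of the start site in all 3, 203 upstream and 56 downstream. The median spread between the 3 summits of a member was 52.5 bp, with an upper quartile of 93.8 bp. Members near the start site can therefore change side from replicate to replicate, as CG5335 did, with a pooled summit 2 bp upstream and replicate summits at 3, -2 and -1 bp.

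Base composition at the summit went with position. The median GC content within 50 bp of the summit was 33.7% for the 98 members more than 100 bp upstream, 42.6% for the 79 lying over 50 and up to 100 bp upstream, and 47.5% both for the 68 within 50 bp upstream and for the 97 at or downstream of the start site. Around the start site itself the same groups had medians of 46 to 46.7%. In the replicates, the median at the summits of top core promoter peaks was 41.6, 42.6 and 45.5%, against 33.7, 34.7 and 36.6% at promoter-proximal peaks, a difference of 8.25 ± 0.57 percentage points (SD, n = 3; exact sign-flip permutation p = 0.25). This last comparison was added after the values were seen.

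By annotation, 144 members had the summit in intergenic sequence, 113 in a 5' UTR, 66 in an intron, 11 in a noncoding exon, 6 in a 3' UTR and 2 in a coding exon. The 5' UTR members had a median signal of 114, and 38.1% had support from every replicate. The intron members had a median of 147, and 62.1% were supported. Of the members 25 lay inside another coding gene, as at eIF6, whose peak lies within ytr, and CG5335, within Atg7. A noncoding transcript started on the opposite strand within 1 kb of 34 members, so the rule does not make these promoters free of opposite-strand transcription. Their median signal was 121 and that of the others 126.

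The X chromosome held 45 members, or 19.8 per 1000 single-strand start sites. Arms 2L, 2R, 3L and 3R held 26.1, 26.9, 27.6 and 30.04 per 1000. Of core promoter peaks among the top peaks of replicates 1, 2 and 3, 13.3, 14.2 and 14.5% were on X, against 18.0, 19.1 and 18.3% of the other top peaks. The difference of -4.44 ± 0.55 percentage points (SD, n = 3) had the same sign in each replicate, with an exact sign-flip permutation p of 0.25. It was computed after the counts by arm were seen.

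Promoter sequence was compared in each replicate between single-strand start sites with a top core promoter peak (337, 315 and 421) and those with no peak of that replicate's whole list within 1 kb (6566, 5960 and 5886). The window ran from 100 bp before to 50 bp after the start site. Its GC content was higher with a peak, at 45.3, 45.7 and 47.6% against 42.1, 42.0 and 41.6%, a difference of 4.30 ± 1.47 percentage points. All comparisons of words below gave an exact sign-flip permutation p of 0.25, the smallest possible, and an adjusted p of 0.267, except Inr. The start sites with no peak may include genes that are silent in embryos, and expression was not measured here.

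Words of broadly expressed promoters were more frequent in every replicate at start sites with a peak than with none within 1 kb. The DRE word TATCGATA, on either strand, was at 8.01, 7.94 and 7.60% of start sites with a peak and at 2.44, 2.30 and 1.97% of those without. The Motif 1 word GGTCACACT was higher by 4.60 ± 0.97 percentage points and the Motif 7 word CATCNCTA by 2.45 ± 0.26. Motif 6, searched as GTATTTTT or as GTATATTT, was higher by 3.74 ± 1.81. The E-box word CAGCTG was higher by 8.75 ± 1.97. Among members alone, the DRE word was at 29 of 341 start sites (8.50%, beside 3.67% of all 13038 single-strand start sites) and the E-box word at 62 (18.2%, beside 9.63%). Within 50 bp of the summit, the DRE word was at 4.68% of members and 4.09% of lower-ranked core promoter peaks of the pooled list. In the same order Motif 1 was at 2.34 and 2.23% and Motif 6 at 1.46 and 2.97%. Motif 7 was at 4.39 and 2.60% and the E-box word at 9.65 and 7.53%. These shares at summits were not tested.

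Start-site words split by type. The TATA word TATAAA, starting 45 to 15 bp before the start site, was at 2.97, 3.81 and 3.33% of start sites with a peak and at 11.8, 11.7 and 12.8% without. The groups did not overlap. The Inr word TCAGT, starting within 10 bp of the start site, differed by -0.89 ± 3.37 percentage points, lower with a peak in replicates 1 and 2 and higher in replicate 3 (exact sign-flip permutation p = 0.75, adjusted p = 0.75). The TCT word was searched there as TCTTTT and as TCTTTC, and with C as its first letter. It was at 6.82, 7.30 and 7.36% of start sites with a peak and at 2.57, 2.40 and 2.33% without. Members with the TATA word, 12 in all, included Hsp27.

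Homeodomain words were less frequent in the start-site window with a peak. That window ends short of summits more than 100 bp upstream, as at 98 members. TAATTG was at 8.90, 7.94 and 6.89% with a peak and at 11.2, 11.2 and 11.4% without. TAATTA was at 2.97, 3.49 and 1.43% with a peak and at 7.34, 7.40 and 7.66% without. Both words consist mostly of A and T, and the GC content differed in the other direction. Among the members, the 20 with TAATTG had a median signal of 208, and 15 of them had support from every replicate. The remaining 322 had a median of 123, with 155 supported. Within 50 bp of the summit, TAATTG was at 4.97% of members and at 5.58% of lower-ranked core promoter peaks of the pooled list. There TAATTA was at 4.09 and 2.60%. At promoter-proximal summits TAATTG was at 8.79% and TAATTA at 6.71%. These shares at summits were not tested. The GAGA-factor word GAGAG was higher with a peak by 10.3 ± 2.15 percentage points, while members that held it had a median signal of 117, beside 130 for those without it. It was at 26.7% of member start sites, beside 22.9% of all single-strand start sites. Within 50 bp of the summit it was at 14.3% of members and at 18.2% of lower-ranked core promoter peaks, which was not tested. The Zelda word CAGGTA differed by -0.50 ± 0.52. Against all other single-strand start sites, whether or not a peak lay near, the differences for these words were smaller. They were 5.66 percentage points for GAGAG, -1.8 for TAATTG, -3.47 for TAATTA and -0.09 for CAGGTA.

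**Figure D4:**
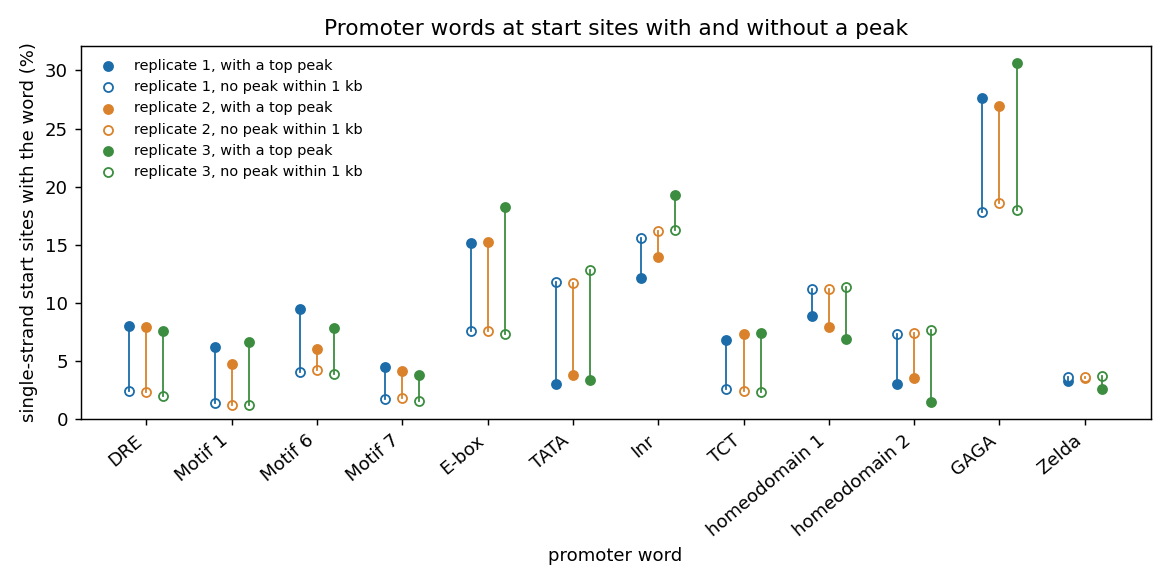
Share of single-strand start sites that hold each of 12 promoter words, for start sites with a top core promoter peak (filled) and with no peak within 1 kb (open) in each replicate; homeodomain 1 and homeodomain 2 are the words with a final G and a final A. DRE, Motif 1, Motif 6, Motif 7, E-box, TCT and GAGA words are higher with a peak in all 3 replicates, TATA, both homeodomain words and Zelda are lower, and Inr changes sign in replicate 3.

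The member promoters were not uniform against other promoter peaks either. The Inr word was at 16.4% of member start sites, 5.18% at both-strand peaks and 22.4% at promoter-proximal peaks. The GAGAG word was at 26.7, 16.2 and 41.7% and the DRE word at 8.50, 11.9 and 2.54% in the same order. TATAAA was rare in all, at 3.52, 2.70 and 4.07%. These shares are descriptions and were not tested.

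A count of all 2080 words of 6 letters, each taken with its reverse complement, was made without a list. The largest excess in the mean over replicates was that of ACACTG, at 21.7, 21.6 and 21.9% of start sites with a peak against 7.98, 7.92 and 7.56% without. ACACTG overlaps the end of the Motif 1 word, yet only 15 of the 80 member start sites with it also held the whole Motif 1 word. The next words were ACAGTG and AGAGCG, followed by CGATAG and TATCGA, which share letters with DRE, and 29 of 74 member start sites with TATCGA held the whole DRE word. The largest deficits were those of TATAAA, at 11.2 ± 1.33% against 27.2%, then ATAAAA and ATAAAT, and after these AACTGA and ATATAA. Of these, AACTGA was at 13.3 ± 0.51% against 22.6%. Its reverse complement holds the Inr word, which was counted on the gene's strand and near the start site only and did not keep its sign over the replicates. Of the words, 687 were higher and 790 lower with a peak in all 3 replicates, so a shared sign alone is common.

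The members lay at 344 genes, 3.61% of the 9521 coding genes with a single-strand start site. Cytoplasmic ribosomal protein genes held far more, 18 of 38 (47.4%). In the single replicates 17, 19 and 21 of the 38 had a top core promoter peak (50% ± 5.26, SD, n = 3). Their peaks had a median signal of 167, and 15 were supported by all replicates. A further 36 ribosomal protein genes had a both-strand peak and are outside the rule. Such genes are known from the whole peak set to be frequent, so the count describes where they fall and is no separate evidence.

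The start-site windows of the ribosomal protein members next in signal after RpL23A are shown on the same scale as above, whether or not they hold a TCT word.
RpS10b, chrX:19597961-19598060, plus strand: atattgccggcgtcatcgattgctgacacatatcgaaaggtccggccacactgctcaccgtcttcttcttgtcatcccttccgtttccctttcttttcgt
RpL22, chrX:765101-765200, minus strand: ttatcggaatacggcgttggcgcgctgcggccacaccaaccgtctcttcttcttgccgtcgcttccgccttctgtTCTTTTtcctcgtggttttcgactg
RpL24, chr2L:13395102-13395201, minus strand: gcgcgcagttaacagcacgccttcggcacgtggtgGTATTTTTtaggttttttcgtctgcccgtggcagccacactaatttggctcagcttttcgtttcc

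Of the 18 ribosomal protein members, 12 held a TCT word, and 12 of the other 324 members did (3.70%). At all 60 single-strand start sites of ribosomal protein genes the word was at 55.0%. RpL22 held it at base 6, and RpS10b and RpL24 held none of its 4 forms at the positions searched. None of the 18 held the TATA word, 4 held the DRE word and 3 the Motif 1 word. Their summits were close to the start site, 15 of 18 within 50 bp, with a median position of -8.5 bp. A small nucleolar RNA gene, which in flies often lies in an intron of such genes, started within 1 kb of 7 members; all 7 were at ribosomal protein genes, and each had support from every replicate.

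RpL23A had signals of 112, 103 and 162 in replicates 1, 2 and 3, at ranks 225, 189 and 93. RpS10b had 115, 83.1 and 174, at ranks 207, 296 and 79. RpL22 had 68.2, 84.0 and 145, at ranks 656, 288 and 129. Replicate 3 ranked all of these higher. RpL17 stood at ranks 1035, 1050 and 221, and RpS14b at 3588, 3152 and 563, so that only replicate 3 supported it. RpS3A on chromosome 4 went the other way, at ranks 718, 1177 and 1547. Over the 18, replicate 3 gave the best rank at 15, and the median rank was 1196, 1090 and 466. Among the other members replicate 3 gave the best rank at 38.6%. Members supported by replicates 1 and 2 alone still covered 15 of the 38 genes.

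Translation factors had members at 7 of 29 genes (24.1%), and 6, 5 and 7 in the single replicates (20.7 ± 3.45%, SD, n = 3). eEF1gamma, a subunit of elongation factor 1, had signals of 142, 138 and 176 at ranks 131, 88 and 76. eIF6, which acts in the maturation of the large ribosomal subunit, had 122, 128 and 173. eEF2, the translocase of elongation, had 55.7, 51.01 and 56.1. By rank, replicate 3 placed eEF1gamma and eIF6 highest. Replicate 2 placed eEF2 highest, at ranks 1016, 827 and 992 in replicates 1, 2 and 3. In contrast to both lists, mitochondrial ribosomal proteins (15 genes), aminoacyl-tRNA synthetases (11), proteasome subunits (23) and splicing factors (5) had no member. At 3.61% these lists would hold less than 1 gene each, so the absence of a member does not set them apart from the background.

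Chromatin regulators had members at 6 of 14 genes (42.9%), but mostly with weak peaks. Trl, which encodes the GAGA factor, had a signal of 241, with 81.6, 78.1 and 84.5 in the replicates, and is the last member inside the distance limit, at 150 bp downstream. The other 5 had pooled signals of 93.9 to 104, next to the lowest signal of any member. They were the insulator genes CTCF and BEAF-32, the Polycomb group genes Psc and ph-d, and kis, a chromodomain helicase gene. CTCF ranked 3309, 6762 and 1552, and Psc 2032, 1854 and 3281. Single replicates had 4, 2 and 2 of the 14 genes (19.1 ± 8.25%, SD, n = 3), and the members supported by every replicate were at 1.

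Heat shock genes had 2 of 21, both small heat shock proteins on 3L and both supported by all replicates. Hsp27 had signals of 114, 115 and 106 with a summit 137 bp upstream, and Hsp26 had 78.6, 44.0 and 59.5 with a summit 97 bp upstream. The basal transcription machinery had 2 of 19. Polr2F, a subunit of RNA polymerase II, had 60.3, 66.0 and 65.8, and Taf4, a subunit of TFIID, had 56.3, 72.2 and 48.4. Cell cycle genes had 2 of 26, Orc1 of the replication origin complex and CycG, neither supported by all replicates. Oxidative phosphorylation subunits had 1 of 46 (ND-B22, a subunit of complex I) and Rab, Vps and Sec genes 1 of 34 (Vps28 of the ESCRT machinery). Both peaks fell out of the top of replicate 2, at ranks 17867 and 12302.

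The lists of signalling and homeobox genes were near or under the background in the reproducible set. Only 42 of the 342 members lay at a gene of any list, so developmental regulators outside the lists were not counted. Of 30 signalling genes gro alone had members (3.33%), and of 54 homeobox genes NK7.1 alone (1.85%). Replicate 3 differed from the others at both lists: 8 signalling genes had a top core promoter peak in it and 1 in each of the other two, and 4 homeobox genes against 0 and 0. Cell cycle genes stood likewise at 5, against 1 and 0. No member lay at 24 muscle structural genes, 153 odorant, gustatory and ionotropic receptor genes or 116 cuticle and Osiris genes.

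NK7.1 itself had a member with a summit 64 bp downstream of a start site on 3R and a pooled signal of 96.7. The signals were 29.1, 24.8 and 44.0 in replicates 1, 2 and 3, at ranks 3554, 3405 and 1579, so that replicate 3 alone placed it among its top peaks. The value is near the lowest signal of any member, 92.6.

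**Figure D5:**
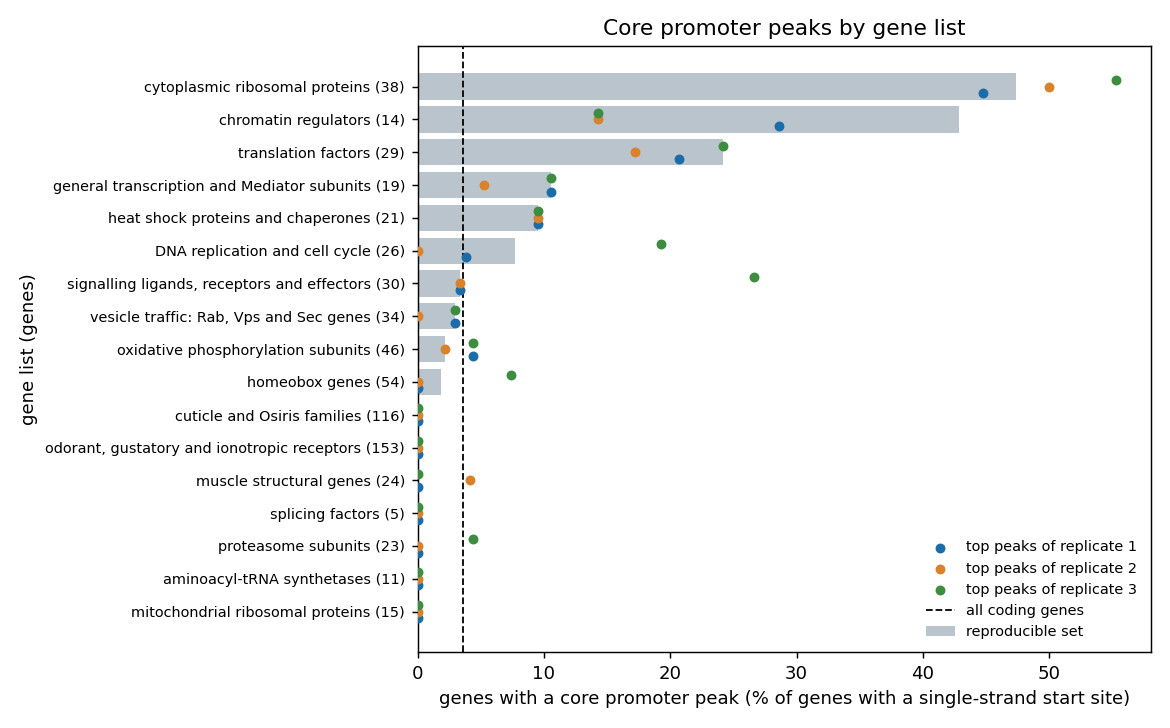
Share of genes with a core promoter peak in 17 gene lists, over genes with a single-strand start site (number in parentheses); bars are the reproducible set, points the top peaks of each replicate, and the dashed line all coding genes (3.61%). Ribosomal proteins and translation factors lie right of the line in all 3 replicates, as do general transcription and heat shock genes with 1 or 2 genes each and chromatin regulators with 2 to 4, the last reaching 42.9% only in the reproducible set; signalling, cell cycle and homeobox genes lie right of it mainly in replicate 3.

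The limits of the rule run through like peaks. The peak nearest outside the distance limit was that of ptc, the Hedgehog receptor gene, 1 bp past it on the upstream side, with a signal of 95.8. On the limit for the opposite strand, BEAF-32 was the last member, with an opposite start site 1017 bp away, and a peak with the opposite start site at 991 bp and a signal of 125, at EMC2B, was the first outside.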

How the data were processed

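ChIP-seq peak lists of 3 biological replicates, of their pool and of a reproducible set had been deposited on dm6; lists on dm3 were not used. Peaks had been called per replicate and on the pool against a control, and the set had been thresholded by irreproducible discovery rate, per the labels of the deposited files. Names of the aligner and of the caller were not given in the sources used here. Signal is a score deposited by the authors in the units of their caller, with no statement on scaling for depth. Their −log10 q-value, as deposited, was capped, with 1276 of 2475 peaks at 3.41, so peaks were ranked by signal. Read counts are not part of the lists. The depth is therefore unknown, and intervals cover counting error and p-values the spread between replicates only.

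Summits were read from the deposited lists and set against coding start sites of the Ensembl annotation of the same assembly (BDGP6) on 6 chromosome arms. Sequences are from the RefSeq copy of the Release 6 genome (dm6), and coordinates are 1-based. Top peaks are the 2475 strongest of a replicate. Differences were taken within each replicate and tested over the 3 replicates by the exact paired sign-flip permutation test (two-sided; Benjamini-Hochberg adjustment for 16 comparisons). Shares have Clopper-Pearson 95% intervals. Gene lists were matched by symbol and are described by counts, with no set test. Named members are the 20 with the highest signal, the 3 highest of each gene list and those next to the limits of the rule; others were named after their values were seen. The members and lists were chosen with earlier results of these data known. The rule, word search and test were tested on simulated data. Alternatives were the distance limits, the start sites used, the strongest 50% of peaks, the start sites compared and leaving out each replicate. Python 3.11.15, NumPy 2.4.6, pandas 2.3.3, SciPy 1.17.1 and Matplotlib 3.10.9 were used.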

Additional observations from a re-analysis of the deposited data

How the results depend on the processing

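Over 20 results and 147 alternatives, 132 values kept their direction, or stayed within 1.5 times for counts, 13 counts moved further and 2 differences changed sign. The 342 members became 515 with a limit of 250 bp and 150 in the strongest 50% of the peaks, and 200 to 214 when support by both remaining replicates was required. The 170 members supported by all replicates became 99 with a limit of 100 bp, 293 with 250 bp and 282 with the number of top peaks doubled. With a replicate summit within 100 bp of the member's required in place of overlap, 153 were supported by all replicates. The signal of core promoter peaks against both-strand peaks turned to a log2 ratio of 0.0549 in the strongest 50%, and shrank to -0.01 with a limit of 250 bp, where that against promoter-proximal peaks shrank to -0.03. The Inr difference, with each replicate left out, ran from -2.81 percentage points without replicate 3 to 0.354 without replicate 1, and was -3.48 with a wider range of starts; the cause was not tested. For the gene lists the alternatives were chosen after seeing the data. The ribosomal protein genes with a member went from 18 to 29 when start sites of the other strand were counted within 500 bp only, since more of these genes then meet the rule. The chromatin regulators went from 6 to 1 in the strongest 50% and to between 1 and 3 when a replicate was left out. The exact permutation test over 3 replicates cannot reach p = 0.05, so the shared sign over replicates, with its size and SD, is what these data give. For GC content and words the sequence is fixed and the replicates share many start sites. The SD there measures how the lists differ and is not a spread over independent sets. The depth of the libraries is unknown.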
